A study of Mus musculus with 8 samples.

Results

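The Tudor domain genes of germ granules were followed here in spermatogonia: Tdrd1, Tdrd3, Tdrd5, Tdrd6, Tdrd7, Tdrd9, Tdrd12, Tdrkh, Rnf17 and Stk31. The 10 genes were taken by symbol from 23343 symbols in the deposited tables, with the counts of a symbol summed over its transcript entries, and all 10 were found. RNA was sequenced from spermatogonia of C57BL/6 testes at postnatal day 7, sorted for Thy1 or for cKit, from mice labelled PRC1ctrl (control) or PRC1dKO (dKO). PRC1 is Polycomb repressive complex 1, a chromatin complex that marks histone H2A with ubiquitin. Control and dKO of each population gave 4 groups of 2 libraries. The deposited libraries also carry the names Ring1-ctrl and Ring1-dKO, which give no other gene. The exact alleles deleted, the Cre driver, the genotype of the controls and whether replicates came from separate animals are not given in the sources used here. The p-values therefore measure the spread between these libraries, which may be technical.

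A Tudor domain is a small fold that binds methylated arginine or lysine. In germ cells, Tudor proteins bind the methylated arginines of PIWI proteins, which carry piRNAs, small RNAs that silence transposons. They assemble cytoplasmic germ granules, such as the intermitochondrial cement of spermatogonia and spermatocytes and the chromatoid body of spermatids. PRMT5 is the enzyme that makes these methylated arginines. Loss of several of these genes in mice blocks sperm formation or releases transposons.

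The main result lay in the cKit+ population. Of the 10 genes, 7 were lower in cKit dKO than in cKit control and 0 were higher: Tdrkh, Tdrd12, Stk31, Tdrd9, Rnf17, Tdrd1 and Tdrd7, when libraries were scaled on all genes; scaled on germ cell markers, 1 was lower and 2 were higher, where 0.409% of all genes were lower and 77.8% higher. Tdrd3 and Tdrd5 did not pass the test, nor did Tdrd6. In the Thy1+ population only Tdrd9 was lower, where 0.262% of all genes were, and only Tdrd6 was higher, where 0.362% were. Each of these calls was lost when any one of the 4 Thy1 libraries was left out. Most calls over all genes in Thy1 were lost then too, with a single library left in a group. The call rule was an edgeR quasi-likelihood test with a Benjamini-Hochberg adjusted p under 0.05 over 14907 genes, and all 10 genes passed its filter on low counts. By that rule, with libraries scaled on all genes, 15.4% of all genes were lower in cKit dKO, 13.2% were higher, and 28.6% were called in either direction. Both cKit dKO libraries lay below both cKit control libraries for the same 7 genes, where 30.0% of all genes did, and above them for 0, where 30.8% did. Of 18 germ cell markers, none of them among the 10 genes, 16 were lower in cKit dKO too, with a median log2 change of -1.61. In bulk samples, fewer germ cells and less RNA of these genes per germ cell cannot be told apart.

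The libraries held 6763908 to 10976869 counts. Thy1 stood at 12.8 to 26.0 CPM (counts relative to the TMM-scaled library size) in the Thy1 libraries and at 0 to 1.28 in the cKit libraries. Kit stood at 281 to 317 CPM in the Thy1 libraries and 938 to 1059 in the cKit libraries. Rnf2, a catalytic subunit of PRC1, stood at 103 to 146 CPM and Ring1, its paralog, at 2.59 to 12.0 over all libraries, and neither passed the test in dKO. A deletion of a few exons can leave the count of the whole gene as it was, and the dKO labels are therefore not checked by these levels. Markers of other testis cells were detected in every group: the summed level of 7 Leydig cell markers was 2549 to 4191 CPM in the Thy1 libraries and 11042 to 18018 CPM in the cKit libraries, and that of 10 peritubular and stromal markers was 10331 to 13891 and 3148 to 6260 CPM. The summed level of 12 markers of spermatids and late spermatocytes was 3.3 to 10.9 CPM, and Prm1, the sperm protamine, was at 0 counts in both libraries of each of the 4 groups.

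Promoter windows are shown for 5 of the genes, because the results set 4 that moved in cKit dKO (Tdrd1, Stk31, Tdrd9 and Tdrkh) beside 1 that did not pass the test (Tdrd3). Each window is the 250 bases before a RefSeq start (GRCm38.p6, the assembly of mm10), written 5′ to 3′ on the strand of the gene. Capitals mark CACGTG, the palindromic E-box, which reads the same on both strands. The motifs were chosen after the values were known. The Tdrd1 windows lie at chr19:56825959-56826208 and, for the internal start, chr19:56830462-56830711. Those of Stk31, Tdrd9, Tdrkh and Tdrd3 lie at chr6:49395354-49395603, chr12:111971309-111971558, chr3:94412994-94413243 and chr14:87416333-87416582, and all 6 are on the plus strand.
Tdrd1 first start: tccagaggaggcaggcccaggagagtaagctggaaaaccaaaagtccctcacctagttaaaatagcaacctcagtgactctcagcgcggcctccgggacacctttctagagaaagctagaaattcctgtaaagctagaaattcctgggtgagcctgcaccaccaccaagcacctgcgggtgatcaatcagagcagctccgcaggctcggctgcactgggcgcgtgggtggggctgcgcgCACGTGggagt
Tdrd1 internal start: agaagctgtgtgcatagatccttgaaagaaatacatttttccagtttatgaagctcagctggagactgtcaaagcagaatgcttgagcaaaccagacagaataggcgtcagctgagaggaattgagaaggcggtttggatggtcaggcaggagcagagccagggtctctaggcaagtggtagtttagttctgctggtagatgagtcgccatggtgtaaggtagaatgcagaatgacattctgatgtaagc
Stk31: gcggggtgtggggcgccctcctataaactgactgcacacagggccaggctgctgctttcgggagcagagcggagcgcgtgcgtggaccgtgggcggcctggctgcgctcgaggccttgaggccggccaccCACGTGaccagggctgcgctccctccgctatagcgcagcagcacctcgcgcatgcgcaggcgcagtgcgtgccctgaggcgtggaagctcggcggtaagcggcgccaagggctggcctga
Tdrd9: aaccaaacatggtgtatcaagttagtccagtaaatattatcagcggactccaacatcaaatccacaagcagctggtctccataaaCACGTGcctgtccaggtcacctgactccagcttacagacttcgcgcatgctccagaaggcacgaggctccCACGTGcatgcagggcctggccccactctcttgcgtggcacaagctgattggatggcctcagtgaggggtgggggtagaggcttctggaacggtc
Tdrkh: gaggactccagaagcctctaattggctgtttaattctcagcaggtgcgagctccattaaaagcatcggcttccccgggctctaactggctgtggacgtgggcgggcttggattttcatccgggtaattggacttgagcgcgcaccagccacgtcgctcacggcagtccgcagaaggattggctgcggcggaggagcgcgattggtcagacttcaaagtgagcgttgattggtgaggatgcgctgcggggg
Tdrd3: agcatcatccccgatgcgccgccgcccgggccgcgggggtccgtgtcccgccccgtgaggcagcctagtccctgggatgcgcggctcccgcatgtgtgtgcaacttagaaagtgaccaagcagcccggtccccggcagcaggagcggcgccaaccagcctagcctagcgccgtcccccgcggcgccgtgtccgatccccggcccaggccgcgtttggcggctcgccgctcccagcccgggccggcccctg
CACGTG was found in at least 1 window of 3 of the 8 member genes that have one, against 6.86% of 27025 genes counted the same way. By window it was in 5 of 14 member windows, against 6.02% of 32851 windows; the pairs of windows of Tdrd1 and of Stk31 that hold it overlap and hold the same site. Tdrd1 held it 11 bases before its first start, Stk31 held it 120 bases before its start, and Tdrd9 held it at 165 and 95 bases before its start. The windows of Tdrkh and Tdrd3 did not hold these letters. Neither did the windows, not shown, of Tdrd7 and Tdrd12, which also fell in cKit dKO, nor that of Tdrd5. The Tdrd7 windows end before RefSeq starts 45965335, 45972297 and 45972831, upstream of the deposited start at 45987462. The bases just before that deposited Tdrd7 start were therefore not searched. The E2F-type motif TTCCCGC, searched on both strands, was found in 1 of the 8 genes, Tdrd5, against 4.38% of genes. The windows differed in CpG content, with 32 CpG sites for Tdrd3, 26 for Stk31, 19 for Tdrkh, 11 for the first Tdrd1 start, 8 for Tdrd9 and 3 for the internal Tdrd1 start, against a median of 6 over all windows. Tdrd5 held 40. The window of Tdrkh ends before RefSeq start 94413244, upstream of the deposited start at 94413318. A match of letters is a description and says nothing of binding.

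Levels between genes were compared as RPKM, which is scaled by transcript length, summed over the entries of a gene. Tdrd1, a scaffold with several Tudor domains that binds the PIWI protein MILI, was the highest of the 10 in every group, at 33.8 RPKM (control) and 24.9 RPKM (dKO) in Thy1, and at 27.1 RPKM (control) and 7.43 RPKM (dKO) in cKit. By the single entry with the most counts it was also the highest in each group mean, at 20.1, 10.3, 19.09 and 3.64 RPKM in that order, although 1 Thy1 dKO library was at 0.01 RPKM for that entry. In Thy1 control, Stk31 (7.61 RPKM) and Rnf17 (7.53 RPKM) followed, and their libraries overlapped. Tdrd9 (4.89) and Tdrkh (4.84) also overlapped each other, as did Tdrd7 (2.96) and Tdrd3 (2.78), with Tdrd5 (3.46) between these pairs and Tdrd12 (2.51) below them. Tdrd6 was last in all 4 groups, listed at 0 in Thy1 control, at 0.13 RPKM in Thy1 dKO, and at 0.03 and 0.02 RPKM in the control and dKO of cKit. Tdrd3 moved from rank 8 (control) and 6 (dKO) in Thy1 and rank 7 in cKit control to rank 2 in cKit dKO, at 3.05 RPKM there (2.15 and 3.94 in the 2 libraries). Its own RPKM stayed between 2.15 and 3.94 over the 8 libraries, while all but Tdrd1 lay below it in cKit dKO.

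**Figure D1:**
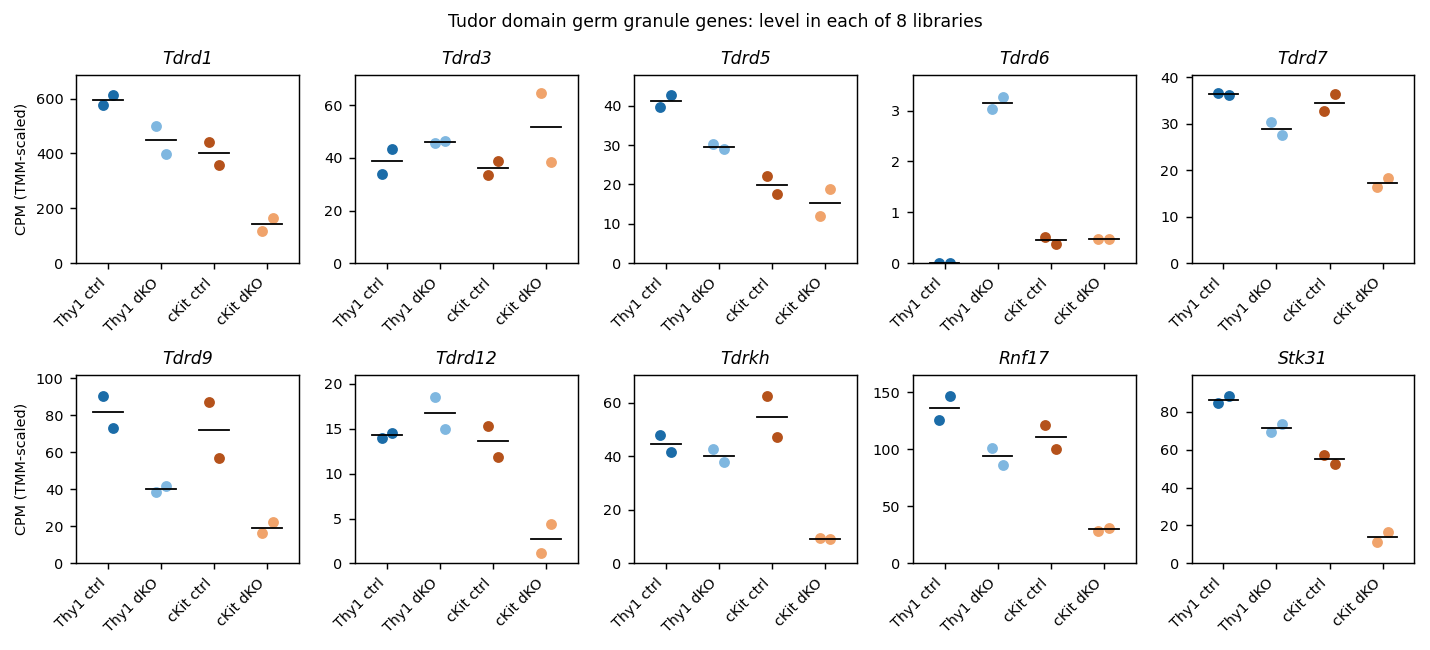
Level of each of the 10 genes in each library, in CPM (scaled on all genes) on a linear axis from 0; the points are the 2 libraries of a group and the line is their mean. The cKit dKO points lie below both cKit control points for 7 genes, and the groups overlap there for Tdrd3, Tdrd5 and Tdrd6.

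Tdrkh and Tdrd1, a mitochondrial anchor and a scaffold for PIWI proteins, were among the genes that fell. Tdrkh (chromosome 3, 94413318 to 94431499 in mm10) encodes the mitochondrial Tudor protein that tethers PIWI proteins for trimming of piRNA ends. Its level was 62.6 and 47.2 CPM in cKit control and 9.45 and 8.94 CPM in cKit dKO. In the Thy1 libraries it was 47.9 and 41.5 CPM in control and 42.7 and 37.8 CPM in dKO. The cKit groups did not overlap, and the Thy1 groups did. The log2 fold change of Tdrkh was -2.58 ± 0.20 (SE; edgeR adjusted p = 2.4e-06) in cKit and -0.15 ± 0.18 (edgeR adjusted p = 0.77) in Thy1.

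Tdrd1 (chromosome 19, 56826209 to 56870012) was at 443 and 357 CPM in cKit control and at 118 and 164 CPM in cKit dKO. In Thy1 it was at 578 and 612 CPM in control and 499.7 and 396 CPM in dKO. Both dKO groups lay below their controls without overlap. The log2 change was -1.51 ± 0.16 in cKit (edgeR adjusted p = 1.3e-05) and -0.41 ± 0.15 in Thy1 (edgeR adjusted p = 0.23), so the second did not pass. Tdrd1 took 49.7% to 56.8% of the counts of the 10 genes in 7 libraries and 42.4% in cKit dKO replicate 1.

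The 2 helicase genes of the family are Tdrd9, whose product works with the PIWI protein MIWI2, and Tdrd12, whose product takes part in making secondary piRNAs. Tdrd9 (chromosome 12, 111971559 to 112068854) was at 87.2 and 56.9 CPM in cKit control and at 16.2 and 22.1 CPM in cKit dKO, without overlap. In Thy1 it was at 90.5 and 73.2 CPM in control and 38.6 and 41.8 CPM in dKO, again without overlap. Its log2 change was -1.92 ± 0.22 in cKit (edgeR adjusted p = 2.2e-05) and -1.03 ± 0.20 in Thy1 (edgeR adjusted p = 0.032). Tdrd12 (chromosome 7, 35493610 to 35537744) was at 15.3 and 11.9 CPM in cKit control and at 1.12 and 4.39 CPM in cKit dKO. In Thy1 it was at 13.9 and 14.6 CPM in control and at 18.6 and 14.97 CPM in dKO, so here the dKO libraries were the higher pair. The log2 change of Tdrd12 was -2.30 ± 0.42 in cKit (edgeR adjusted p = 0.00084) and 0.24 ± 0.34 in Thy1 (edgeR adjusted p = 0.82). The size in cKit differed between the 2 dKO libraries: it was -3.56 without cKit dKO replicate 2 and -1.59 without cKit dKO replicate 1, both past the test.

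Rnf17 (Tdrd4), a Tudor protein with a RING finger that limits promiscuous activity of PIWI proteins in male germ cells, lies on chromosome 14 (56402697 to 56525031). It was at 122 and 100.6 CPM in cKit control and 28.8 and 30.9 CPM in cKit dKO, without overlap. The Thy1 libraries held 125 and 147 CPM in control and 101.5 and 86.0 CPM in dKO. The log2 change of Rnf17 was -1.90 ± 0.15 in cKit (edgeR adjusted p = 2.9e-06) and -0.54 ± 0.14 in Thy1 (edgeR adjusted p = 0.085). Stk31 (chromosome 6, 49395604 to 49469502), which joins a Tudor domain to a kinase-like domain, was at 57.2 and 52.6 CPM in cKit control and 11.4 and 16.6 CPM in cKit dKO. In Thy1 it was at 84.5 and 88.3 CPM in control and 69.3 and 73.5 CPM in dKO. The dKO groups of Stk31 lay below their controls in both populations, by -1.97 ± 0.18 in cKit (edgeR adjusted p = 4.6e-06) and -0.28 ± 0.15 in Thy1 (edgeR adjusted p = 0.45) on the log2 scale.

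Tdrd5, Tdrd6 and Tdrd7 encode proteins of the chromatoid body. Tdrd7 (chromosome 4, 45987462 to 46034759) was at 32.7 and 36.4 CPM in cKit control and 16.3 and 18.4 CPM in cKit dKO, without overlap, a log2 change of -0.99 ± 0.18 (edgeR adjusted p = 0.00099). In Thy1 it went from 36.6 and 36.1 CPM in control to 30.3 and 27.5 CPM in dKO, a change of -0.33 ± 0.17 that did not pass (edgeR adjusted p = 0.42). Tdrd5 (chromosome 1, 156255296 to 156303606) was at 22.2 and 17.6 CPM in cKit control and at 11.9 and 18.8 CPM in cKit dKO, and these groups overlapped. Its change in cKit was -0.38 ± 0.23 (edgeR adjusted p = 0.23), and -0.72 (edgeR adjusted p = 0.042) without cKit dKO replicate 2. Tdrd5 shares 176 exon bases with 4930518J20Rik, an antisense gene, whose reads cannot be told apart from its own here, since the strand setting of the counting is not given in the sources used here. In Thy1 it was at 39.7 and 42.9 CPM in control and at 30.3 and 29.0 CPM in dKO, a change of -0.48 ± 0.21 that did not pass (edgeR adjusted p = 0.33).

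Tdrd6 (chromosome 17, 43615335 to 43630299), whose product organizes the chromatoid body in spermatids, was the scarcest of the 10. It had 0 and 0 counts in the Thy1 control libraries, 27 and 24 in the Thy1 dKO libraries, and 6 and 3 (control) and 3 and 3 (dKO) in the cKit libraries. The Thy1 dKO libraries, at 3.04 and 3.27 CPM, were therefore the high pair, and the cKit libraries lay between 0.38 and 0.52 CPM. Its level in Thy1 dKO was 16.9-fold a floor of 3 counts over the 2 Thy1 control libraries (0.186 CPM). That floor covers counting error only, and replicates differed by more than that. Tdrd6 was called higher in Thy1 dKO (edgeR adjusted p = 0.028). It passed in the same test as Tdrd9, and 0.624% of all genes were called in either direction in that comparison. Between cKit dKO and cKit control the ratio of Tdrd6 was 1.02, with an exact 95% interval of 0.30 to 3.22 that covers counting error only. Between Thy1 dKO and cKit dKO it was 6.61 (2.84 to 18.9). The counts of Tdrd6, with 3 transcripts in its entry, and of Tdrd3, with 2, may be truncated by the counting, as set out for Tdrd1 below.

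Tdrd3 (chromosome 14, 87416583 to 87545508) is a reader of methylated arginine on histones and RNA polymerase that works with the topoisomerase TOP3B and is expressed in many tissues. It was at 33.4 and 38.8 CPM in cKit control and at 64.8 and 38.6 CPM in cKit dKO, so that 1 dKO library stood high and the other lay at the level of the controls. The log2 change was 0.52 ± 0.21 (edgeR adjusted p = 0.080). It was 0.88 (edgeR adjusted p = 0.0026) without cKit dKO replicate 2 and 0.15 (edgeR adjusted p = 0.63) without cKit dKO replicate 1. In Thy1 it was at 34.1 and 43.3 CPM in control and at 45.5 and 46.3 CPM in dKO, a change of 0.24 ± 0.21 that did not pass (edgeR adjusted p = 0.67).

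**Figure D2:**
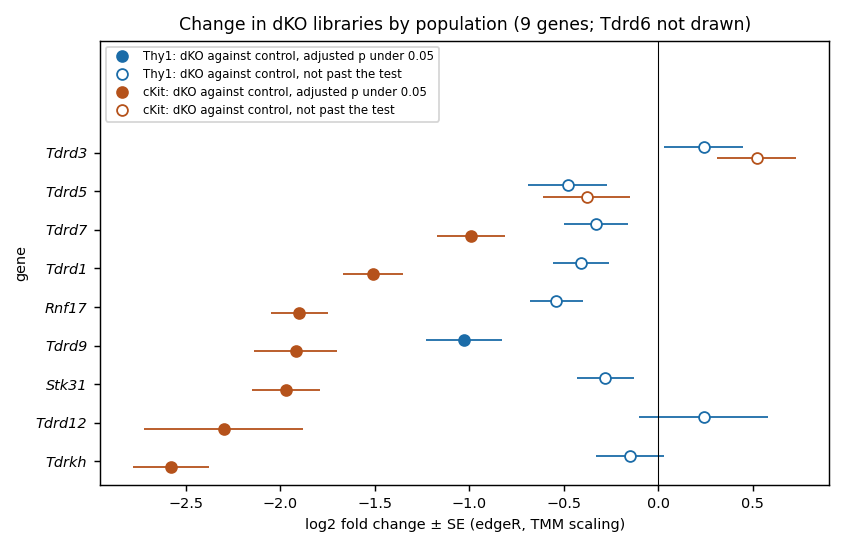
Log2 fold change (± SE, edgeR) of dKO against control for 9 genes, in Thy1 (blue) and cKit (orange), scaled on all genes, with filled points for an adjusted p under 0.05. Tdrd6 is not drawn because its Thy1 control libraries had 0 counts; Tdrkh and Tdrd12 show the widest gap between the populations, at -2.58 against -0.15 and -2.30 against 0.24.

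With any one of the 4 Thy1 libraries left out, the edgeR adjusted p in Thy1 was 0.11 to 0.34 for Tdrd9 and 0.22 to 0.34 for Tdrd6, while the log2 change of Tdrd9 stayed between -1.17 and -0.87. The Tdrd9 call was also lost with germ cell scaling (-0.98, edgeR adjusted p = 0.65) and with limma on RPKM (-1.01, limma adjusted p = 0.23). In Thy1 the median log2 change of the 10 genes was -0.30, against 0.03 over all genes tested, and 6 genes had both dKO libraries below both controls, where 22.8% of all genes did; for 3 genes (Tdrd3, Tdrd6 and Tdrd12) they lay above, where 28.5% did. Fitted on the 4 Thy1 libraries alone, 4 of the 10 genes passed, Tdrd1 (-0.43), Tdrd9 (-1.05) and Rnf17 (-0.56) lower and Tdrd6 higher, and 870 of all genes did. Over all genes the split of Thy1 calls was 54 higher and 39 lower, against 11 and 4 with germ cell scaling and 2 and 4 with limma on RPKM. Markers of other cells stood higher in Thy1 dKO than in Thy1 control without overlap for 4 lists: the summed Sertoli level was 318 to 328 against 244 to 253 CPM, the Leydig level 3750.0 to 4191 against 2549 to 3169, the endothelial level 471 to 487 against 319.0 to 319.3, and the macrophage level 1212 to 1349 against 869.7 to 1002. The summed germ cell, peritubular and mast cell levels overlapped between the Thy1 groups. Gene by gene, 1 of 10 tested Sertoli, 2 of 7 Leydig, 1 of 8 endothelial and 0 of 8 macrophage markers were called higher in Thy1 dKO. Of all genes 0.362% were called higher there. The part of these cells in the Thy1 values was not tested.

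Whether the dKO effect differed between populations was tested as the cKit effect minus the Thy1 effect. It differed for 6 of the 10 genes, all toward lower in cKit, where 4.06% of all genes were lower, 1.86% higher and 5.92% called in either direction. The difference was -2.53 ± 0.54 on the log2 scale for Tdrd12 (edgeR adjusted p = 0.013, with adjusted p likewise in brackets for the next genes), -2.43 ± 0.27 for Tdrkh (0.00083), -1.69 ± 0.23 for Stk31 (0.0011), -1.36 ± 0.21 for Rnf17 (0.0019) and -1.10 ± 0.22 for Tdrd1 (0.0087). Tdrd6 was the sixth (edgeR adjusted p = 0.027), through its 0 counts in Thy1 control and 51 in Thy1 dKO. The difference did not pass for Tdrd9 (-0.89, 0.092), Tdrd7 (-0.66, 0.14), Tdrd3 (0.28, 0.66) and Tdrd5 (0.10, 0.91). The count was 3 when replicate 1 of Thy1 control, of Thy1 dKO or of cKit control was left out, each alone. Over all genes the split of this difference was 278 higher and 605 lower, against 450 and 584 with DESeq2, 172 and 966 with library totals and 41 and 1127 with limma on RPKM; 8926 were higher and 23 lower with germ cell scaling.

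Between the control populations, 3 of the 10 genes were lower in cKit than in Thy1 and 0 were higher, where 10.3% of all genes were lower, 9.46% higher and 19.7% called in either direction. Tdrd5 was lower by -1.05 ± 0.22 (edgeR adjusted p = 0.0026), Stk31 by -0.65 ± 0.15 (0.0068) and Tdrd1 by -0.57 ± 0.15 (0.015) on the log2 scale. The values by library are those given above: Tdrd5 fell from 39.7 and 42.9 CPM to 22.2 and 17.6 CPM, without overlap. Tdrkh, at 0.30 ± 0.17 (0.26), and the other genes did not pass. Only the Tdrd5 call held without Thy1 control replicate 2, and likewise without cKit control replicate 2, and with germ cell scaling 0 of the 3 calls held. Over all genes the split between controls was 1410 higher and 1529 lower, against 1100 and 544 with germ cell scaling and 2418 and 910 with limma on RPKM. Between the dKO populations, 9 genes were lower in cKit, all but Tdrd3, where 20.0% of all genes were lower, 14.8% higher and 34.8% called in either direction. The log2 differences ran from -2.69 ± 0.85 for Tdrd6, -2.60 ± 0.41 for Tdrd12 and -2.35 ± 0.18 for Stk31 to -0.74 ± 0.19 for Tdrd7. Scaled on germ cell markers, 4 of the 10 were higher in cKit dKO, Tdrd3 (2.10), Tdrd7 (1.11), Tdrd5 (0.86) and Tdrd9 (0.75), and 0 lower, where 79.9% of all genes were higher and 0.872% lower. Over all genes the split between the dKO groups was 2202 higher and 2988 lower, against 1666 and 3797 with library totals. These comparisons share libraries with the dKO comparisons, so their values are not separate evidence. The population also goes with separate ranges of library records in the labels, and the 2 cannot be told apart.

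Germ cell marker RNA was lower with the Tudor genes in cKit. The summed level of the 18 germ cell markers was 2356 to 2724 CPM (control) and 2294 to 2526 CPM (dKO) in Thy1, and 1637 to 2208 CPM (control) and 561 to 741 CPM (dKO) in cKit. The summed level of the 10 genes went from 719.7 to 876 CPM in cKit control to 278 to 323 CPM in cKit dKO. The summed levels of markers of other cells stood higher in cKit dKO, as several did in Thy1 dKO. The Sertoli level was 431 to 458 CPM in cKit control and 742 to 772 in cKit dKO. The peritubular and stromal level was 3148 to 3231 and 5022 to 6260, and the endothelial level 208 to 213 and 409 to 427. The Leydig level was 11042 to 13257 and 15407 to 18018, and the mast cell level 119 to 195 and 239 to 287. Single genes made up much of some sums, with means of 7702 and 11443 CPM for Hsd3b1 (Leydig) and 171 and 345 CPM for Cdh5 (endothelial). Called higher were 5 of 10 tested Sertoli, 7 of 10 peritubular and stromal, 3 of 8 endothelial and 5 of 7 Leydig markers. Of all genes 13.2% were called higher. Cyp17a1 (Leydig) was lower by -0.72 ± 0.25, where 15.4% of all genes were. The macrophage level, 169 to 392 and 137 to 502 CPM, overlapped between the groups. All 11 Sertoli and all 10 peritubular and stromal markers were detected in both libraries of each cKit group. The part of these other cells in the result was not tested.

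The ratio of the summed level of the 10 genes to that of the germ cell markers was 0.397 and 0.440 in cKit control and 0.496 and 0.436 in cKit dKO, and these groups overlapped. In Thy1 the ratio was 0.446 and 0.403 in control and 0.348 and 0.330 in dKO, which did not overlap. When the libraries were scaled on the 18 germ cell markers instead of all genes, the median log2 change of all genes in cKit moved from 0.034 to 1.575, and that of the 10 genes from -1.70 to -0.16. The split of calls over all genes moved from 1965 higher and 2294 lower to 11602 higher and 61 lower. It moved the other way with library totals (1278 higher, 3007 lower) and with limma on RPKM (443 higher, 4042 lower), and under each of these 7 of the 10 genes were lower and 0 higher. With the entry of most counts 6 of the 10 were lower and 0 higher, and 1485 of all genes were higher and 1919 lower. Without the low count filter 7 were lower and 1 higher, and 2228 of all genes were higher and 2497 lower. Relative to germ cell markers only Tdrkh was lower in cKit dKO, where 0.409% of all genes were, by -1.01 ± 0.38 (edgeR adjusted p = 0.012). Tdrd3 (2.11 ± 0.36, edgeR adjusted p = 7.1e-08) and Tdrd5 (1.14 ± 0.38, edgeR adjusted p = 0.0050) were higher on that scale, where 77.8% of all genes were. Tdrd12 (-0.84 ± 0.50), Stk31 (-0.47 ± 0.37), Tdrd9 (-0.36 ± 0.36) and Rnf17 (-0.34 ± 0.35) no longer passed, and Tdrd1 (0.02 ± 0.35) and Tdrd7 (0.52 ± 0.37) changed sign without passing. The difference of the dKO effects passed for 3 genes on this scale, Tdrd3 (1.80) and Tdrd5 (1.56) higher, where 59.9% of all genes were, and Tdrd6 lower, where 0.154% were.

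**Figure D3:**
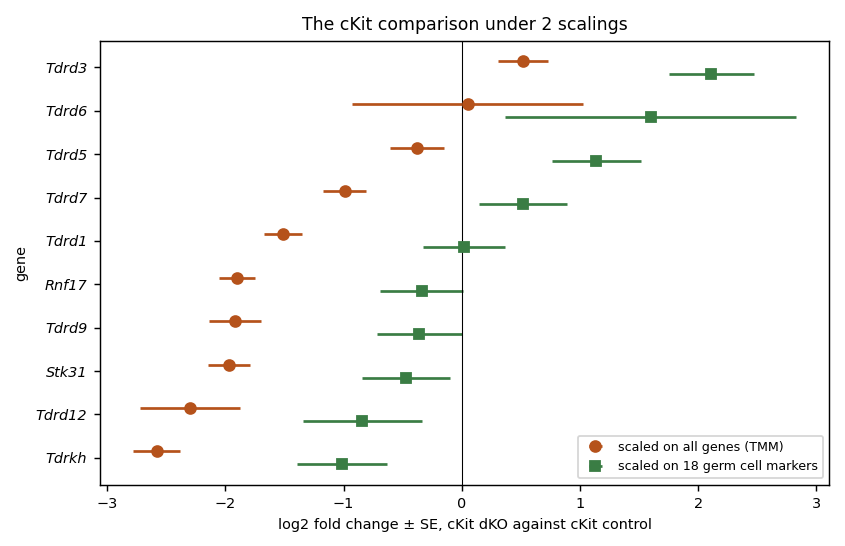
Log2 fold change (± SE, edgeR) in cKit dKO against cKit control for the 10 genes, with libraries scaled on all genes (circles) or on 18 germ cell markers (squares). Every gene moves to the right under the second scaling; Tdrkh stays lower at -1.01 and Tdrd3 lies highest at 2.11.

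The partners of the family in the piRNA pathway and germ granules were taken from a list of 26 genes, of which 23 were tested (Dnmt3l was below the count filter, and Btbd18 and Spocd1 were not matched by symbol). In cKit dKO 18 of the 23 were lower and 0 higher, where 15.4% of all genes were lower and 13.2% higher. Their median log2 change was -1.58, against 7 of 10 lower and -1.70 in the Tudor family and 0.03 over all genes. The list shares 4 genes with the germ cell markers. Among the PIWI proteins, Piwil1 (MIWI) changed by -3.01 ± 0.62, Piwil2 (MILI) by -2.08 ± 0.17 and Piwil4 (MIWI2) by -1.48 ± 0.50. Morc1, a nuclear ATPase of transposon silencing, changed by -2.70 ± 0.20, Henmt1, the piRNA methyltransferase, by -2.17 ± 0.38, Pnldc1, the exonuclease that trims piRNA ends at TDRKH, by -2.14 ± 0.38, and Gtsf1, a PIWI cofactor, by -1.90 ± 0.36. Ddx4 (-1.81 ± 0.17) and Mael (-1.71 ± 0.15), both granule components, were also lower. Prmt5, which methylates the arginines that Tudor domains bind, was at -0.40 ± 0.15 and did not pass (edgeR adjusted p = 0.051), and its cofactor Wdr77 was lower by -0.52 ± 0.15. Exd1, Mybl1, Nanos2 and Nanos3 did not pass either. In Thy1 dKO 1 of the 23 was lower, where 0.262% of all genes were. This was Morc1, by -1.01 ± 0.16 (edgeR adjusted p = 0.015), and no other partner passed. The partners' median log2 change in Thy1 was -0.47, against 0.03 over all genes. For 18 of the 23 both Thy1 dKO libraries lay below both controls, where 22.8% of all genes did. For 1 they lay above, where 28.5% did. Scaled on germ cell markers, the partners' median in cKit was -0.07, with 3 higher and 2 lower, where 77.8% and 0.409% of all genes were.

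Tudor domains also occur in genes outside germ granules, and 26 such genes were set beside the family. In cKit dKO 9 were lower and 3 higher, where 15.4% of all genes were lower and 13.2% higher. The median log2 change of the 26 was 0.00. Uhrf1, which recruits the maintenance DNA methyltransferase, was lower by -1.07 ± 0.15, Mtf2, a PRC2 accessory subunit, by -0.98 ± 0.14, Lbr, a nuclear lamina receptor, by -0.90 ± 0.16, Smndc1, a splicing factor, by -0.79 ± 0.19 and Phf20 by -0.74 ± 0.13. Spin4 (1.12 ± 0.25), Arid4a (0.87 ± 0.13) and Phf1 (0.86 ± 0.27) were higher. Snd1 (0.35 ± 0.14) and Smn1 (0.03 ± 0.24) did not pass. Of 6 partners of Tdrd3, of which Fmr1, Fxr1 and Fxr2 are also in the list of 26, Coil (-0.67 ± 0.21), Fxr1 (-0.62 ± 0.11) and Fmr1 (-0.40 ± 0.12) were lower, and Top3b, at -0.13 ± 0.17, did not pass. Scaled on germ cell markers, 21 of the 26 other Tudor domain genes were higher and 0 lower in cKit dKO, a share near the 77.8% of all genes that were higher on that scale.

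**Figure D4:**
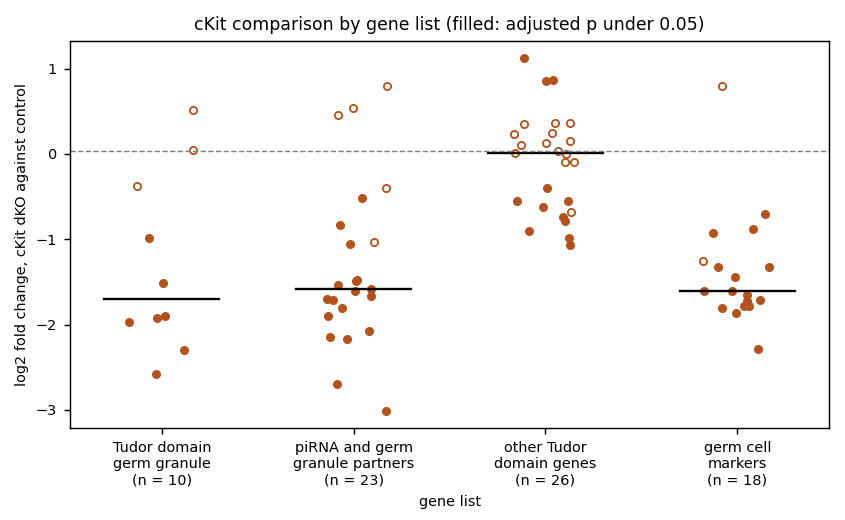
Log2 fold change in cKit dKO against cKit control for the 10 Tudor genes of germ granules, 23 partners, 26 other Tudor domain genes and 18 germ cell markers, 1 point per gene (filled for an edgeR adjusted p under 0.05), with the list median as a bar and the median of all genes as a dashed line. The medians are -1.70, -1.58, 0.00 and -1.61 with libraries scaled on all genes, as drawn. With libraries scaled on germ cell markers, not drawn, they are -0.16, -0.07, 1.54 and -0.04. The last is small by construction, since these markers set that scaling, and 4 of them are also in the partner list.

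The genes whose pattern was most like that of the 7 genes that fell were sought among 10227 other genes with a mean log2 CPM of at least 3. Likeness was the root mean square difference of log2 CPM, centred per gene, from the mean profile of the 7 over the 8 libraries. The nearest were Uba1y (0.0922), Scml2 (0.0988), Zswim6 (0.0994), Ccdc136 (0.107), Bub1 (0.111) and Igf2bp1 (0.115). The members of the profile lay at 0.134 (Rnf17), 0.159 (Tdrd1), 0.268 (Stk31), 0.287 (Tdrkh), 0.319 (Tdrd9), 0.456 (Tdrd7) and 0.478 (Tdrd12), so Rnf17 was closest to the mean of the 7. Tdrd5 (0.532), Tdrd3 (1.06) and Tdrd6 (1.65) were not in the profile and lay farther from it. The 7 genes set the profile themselves, and the others were left out for not falling. This order was therefore partly fixed in advance. The profile itself, on the centred log2 scale, was 0.68 and 0.67 (control) and 0.39 and 0.25 (dKO) in Thy1, and 0.59 and 0.31 (control) and -1.69 and -1.20 (dKO) in cKit, with the cKit dKO libraries low and the others close together.

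Tdrd1 has 4 deposited transcript entries, and most of its counts fell to 2 of them: one that begins at 56826209 and one at the internal start 56830712, after the promoter windows shown above. In Thy1 the internal entry took 42.0% and 40.0% of the Tdrd1 counts (control) and 26.8% and 99.9% (dKO), and in cKit 14.6% and 51.0% (control) and 25.5% and 70.6% (dKO). In Thy1 dKO the first entry thus held 3179 counts in 1 library and 1 in the other, and the internal entry 1187 and 2908. In every group but Thy1 control the 2 libraries lay far apart in this share, so the entries were not compared between groups, and the summed counts were used. The deposited counts are whole numbers, and low values were checked against the count implied by the RPKM column. In symbols with several transcripts the 2 matched within 0.05 counts for 6.3% of 591 values, compared with 91.9% of 897 for symbols with 1 transcript. The deposited counts of symbols with several transcripts may thus be truncated.

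**Figure D5:**
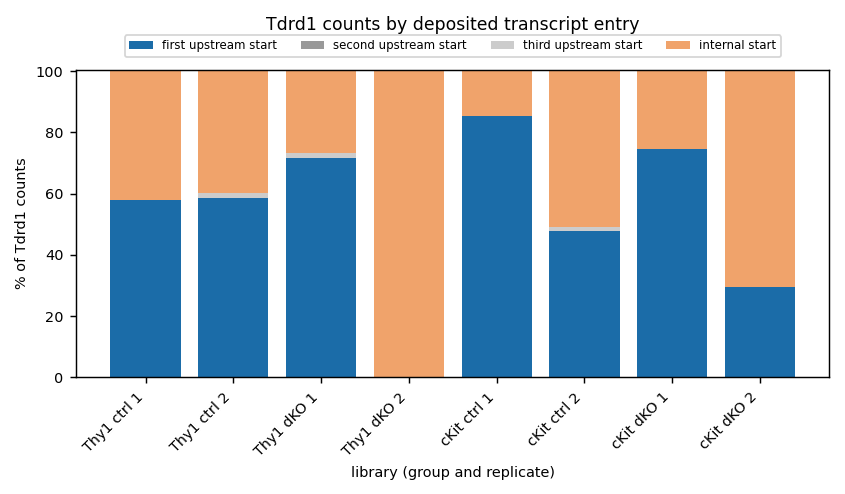
Share of the Tdrd1 counts of each library (percent, stacked bars) that fell to each of its 4 deposited entries. The internal start (orange) takes 26.8% and 99.9% in the 2 Thy1 dKO libraries and 42.0% and 40.0% in Thy1 control.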

How the data were processed

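The study measured RNA of Thy1+ and cKit+ spermatogonia at postnatal day 7 in 8 libraries, 2 per group. Per the labels' protocols, amplified cDNA (NuGEN Ovation v2) went into Nextera XT libraries for HiSeq sequencing. STAR 2.4.2a and the build mm10 are named in the submitters' processing notes. The counter and its strand setting are not given in the sources used here. The deposited read counts are not normalized, per the file headers, and cover 26099 RefSeq transcript entries. The deposited RPKM values were scaled by the authors to transcript length and library size, per the file headers. For symbols with several transcripts the deposited counts appear to be truncated shares. Amplified libraries carry no molecular identifiers, so intervals and floors cover counting error only.

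Counts were summed per symbol, filtered with filterByExpr by group (minimum count of 10), scaled with TMM and tested with edgeR 4.0.16 (glmQLFit and glmQLFTest, two-sided, R 4.3.3), with 1 mean per group over all 8 libraries and 4 residual degrees of freedom. The 5 comparisons were dKO against control in each population, cKit against Thy1 in each genotype, and the difference of the dKO effects, and p-values were adjusted over 14907 genes. With 2 libraries against 2, an exact permutation test cannot go below 0.33. Replicates differed by more than counting error in each group (chi-square over degrees of freedom 10.3 to 19.4). In simulated cKit data on 14907 genes, 50 genes were changed at each fold, drawn from genes at a mean CPM of at least 5. All other genes were held equal over the groups, unlike in the real data. Of the changed genes, 98% of those raised or lowered 4-fold were recovered. The share was 78% of those raised 2-fold and 66% of those lowered 2-fold, with 4 false calls. The rates do not cover scarcer genes such as Tdrd6. Alternatives were DESeq2 1.42.0, limma 3.58.1 on log2(RPKM + 0.1), other scalings, no filter, the 4 libraries alone, the entry with the most counts, a replicate block and leaving out each library. Likeness used log2 CPM with a prior count of 2. Overlaps were read from GENCODE M21 on GRCm38 and promoters from RefSeq. Levels between genes were planned for the RPKM of the entry with the most counts; the sum over entries was used and both are given for Tdrd1, whose entries differed between replicates. The members, lists, motifs and tests were chosen with earlier results of these data known. Named genes were the 10 members, 4 label checks, up to 8 called genes of largest change per list plus exceptions, and the 6 genes of nearest pattern; Piwil4 and Wdr77 were named outside this rule, after their values were seen.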

Additional observations from a re-analysis of the deposited data

Results flagged for a closer look

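For 6 genes the dKO effect differed between the populations by a test of the difference itself (cKit effect minus Thy1 effect, log2 scale, edgeR). The values were -1.10 for Tdrd1, -2.53 for Tdrd12, -2.43 for Tdrkh, -1.36 for Rnf17 and -1.69 for Stk31. For Tdrd6 the fitted difference was -7.62, which rests on 0 counts in Thy1 control, depends on the prior count and bounds nothing. Scaled on germ cell markers, these differences were 0.38, -1.13, -0.90, 0.14 and -0.25 for the first 5 genes in that order, none past the test, and -5.81 for Tdrd6, which passed (edgeR adjusted p = 0.019).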

How the results depend on the processing

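Of 836 values of single genes under the alternatives, 720 kept their direction and their side of the threshold, 62 lost the call, 18 gained it and 36 changed sign. Of 168 counts of calls, 119 stayed within 1.5 times the reported count. The cause of these shifts was not tested. In the Thy1 dKO comparison 2 of the 10 genes passed, against 1 with germ cell scaling, 4 without a filter, 4 on the 4 libraries alone, 0 with limma on RPKM, 0 with the entry of most counts, and 0 to 3 without 1 library (0 without any one of the Thy1 libraries). Over all genes the count was 93, against 15 with germ cell scaling, 334 with DESeq2, 563 without a filter, 870 on the 4 libraries alone, 6 with limma on RPKM, 9 with the entry of most counts, and 3 to 400 without 1 library. In the cKit dKO comparison 7 of the 10 passed, against 3 with germ cell scaling and 7 to 9 without 1 library, and 4259 of all genes, against 11663 with germ cell scaling and 2386 to 3972 without 1 library (2386 without cKit control replicate 1). Between the controls 3 of the 10 passed, against 0 with germ cell scaling, 1 with limma on RPKM, 1 with the entry of most counts and 1 to 3 without 1 library; 2939 of all genes passed, against 1644 with germ cell scaling and 1717 to 3575 without 1 library. Between the dKO groups 9 of the 10 passed, against 4 with germ cell scaling and 6 to 9 without 1 library, and 5190 of all genes, against 12041 and 3101 to 5245. For the difference of the effects 6 of the 10 passed, against 3 with germ cell scaling and 3 to 7 without 1 library, and 883 of all genes, against 8949 with germ cell scaling, 1490 without a filter, 433 with the entry of most counts and 219 to 1268 without 1 library.

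Signs changed as follows. In cKit dKO against control, germ cell scaling gave 0.02 (Tdrd1), 1.14 (Tdrd5) and 0.52 (Tdrd7), limma on RPKM -0.16 (Tdrd3) and -0.06 (Tdrd6), and library totals -0.09 (Tdrd6), while Tdrd6 ran from -0.08 to 0.30 without 1 library. Between controls, germ cell scaling gave 0.31 (Tdrd3), 0.31 (Tdrd7), 0.13 (Tdrd9), 0.28 (Tdrd12) and 0.07 (Rnf17), and limma 0.23 (Tdrd3), 0.16 (Tdrd7), 0.03 (Tdrd9) and 0.15 (Tdrd12). Without 1 library Tdrd3 ran from -0.27 to 0.08, Tdrd7 from -0.16 to 0.00, Tdrd9 from -0.52 to 0.08 and Tdrd12 from -0.26 to 0.10. Between dKO groups, germ cell scaling gave 0.17 (Tdrd1), 0.86 (Tdrd5), 1.11 (Tdrd7), 0.75 (Tdrd9) and 0.21 (Rnf17), and Tdrd3 ran from -0.17 to 0.57 without 1 library. For the difference of the effects, germ cell scaling gave 0.38 (Tdrd1), 0.80 (Tdrd7), 0.62 (Tdrd9) and 0.14 (Rnf17), limma -0.22 (Tdrd3) and -0.24 (Tdrd5), and library totals -0.04 (Tdrd5). Without 1 library Tdrd3 then ran from -0.06 to 0.68 and Tdrd5 from -0.21 to 0.48.

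Whether libraries with the same replicate number were paired is not given in the sources used here. Their deviations from the group means had correlations across genes of -0.045 to 0.052. These values include counting noise, so they cannot decide whether the libraries were paired. With a replicate block the calls in Thy1 dKO over all genes went from 93 to 157, and no count of the 10 genes changed. Limits: 2 libraries per group leave little information on the spread, which was pooled over groups. A lone library left after leaving one out is assumed to vary like the other groups. Tdrd6, with 0 to 27 counts a library, was not tested on the 4 libraries alone in the cKit dKO comparison or between controls, and DESeq2 gave it no adjusted p in Thy1.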
